A study of Mus musculus with 72 samples.

Results

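RNA levels 32, 34 and 36 h after a serum shock were compared with RNA levels 22, 24 and 26 h after it in mouse bone-marrow-derived macrophages. The libraries were chosen by their labelled hour. The windows and gene lists were chosen with earlier results of these data known. Each window holds 9 libraries, 3 hours in each of 3 time courses, so that 18 of the 72 libraries in the series enter the comparison. The remaining libraries cover 16 to 62 h in steps of 2 h, and the same hours 1 day later, 56 to 60 h and 46 to 50 h, serve as a second interval. All groups share the same cells: male C57BL/6 mice, 3 to 6 months old, carry Per2::Luc, a luciferase reporter at the Per2 clock gene, and progenitors from their leg bones were grown with the growth factor M-CSF for 6 days until the dish was full. Serum shock, a short exposure to concentrated serum, was given to every culture, and cultures without it were not analysed here, so time after the shock and time in culture cannot be told apart. The labels do not tie the courses to different mice or dishes, and the p-values below therefore measure the spread among these samples, which may be technical. With 3 hours pooled per window, and libraries of a course entered as independent samples, that spread also includes change within the window.

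Serum carries growth factors, and resting cells that receive them enter the cell cycle: E2F transcription factors, released from the retinoblastoma proteins, switch on the genes that copy DNA, and the DREAM complex and MYB proteins govern the genes of mitosis later in the cycle. The shock also aligns the circadian clocks of cultured cells, in which ARNTL (also called BMAL1) and CLOCK drive the Period, Cryptochrome and Rev-erb genes, whose proteins then hold ARNTL and CLOCK in check. Macrophages depend on M-CSF through its receptor CSF1R, and they take up and export lipids, digest what they engulf in lysosomes and present fragments of it on MHC molecules.

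Each library held between 48492358 and 61157035 counts assigned to genes at 32-36 h, against 49778897 to 62023984 at 22-26 h. Levels are given as CPM, counts scaled to library size and by TMM factors, which compares a gene between libraries and not with other genes of another length. The 10 defining macrophage markers were present in all 18 libraries, and they summed to between 20490 and 27690 CPM at 32-36 h, against 18290 to 21770 CPM at 22-26 h (exact permutation test over libraries, two-sided, p = 0.000288, adjusted p = 0.0013 over 14 such measures). Hba-a1, Hba-a2 and Hbb-bs of haemoglobin were at 0 in all 18 libraries, and Hbb-bt and Cd3e of T cells in 17. The summed erythroid and megakaryocyte markers, nearly all of it Pf4, were lower at 32-36 h (36.97 to 102.5 CPM, against 123.4 to 198.2 CPM at 22-26 h; exact permutation p = 4.11e-05), as were the dendritic cell markers, nearly all of it Bst2 (138 to 205.9 CPM at 32-36 h, against 182.9 to 463.4 CPM at 22-26 h; p = 0.000165). B cell, osteoclast and endothelial markers were higher in sum (exact permutation p = 0.00037, 0.00518 and 0.0139). Most of these sums was Ighm, Nfatc1 and Vwf, in that order. Vwf averaged 178 CPM at 32-36 h and 120 CPM at 22-26 h, while Kdr averaged 12.5 and 20.1 CPM. Of 4 tested endothelial markers 1 was called higher and 2 lower, and of 4 tested osteoclast markers 1 was called higher and 1 lower. The sums for fibroblasts and stroma (p = 0.59), neutrophils (p = 0.766), mast cells (p = 0.671) and T and NK cells (p = 0.933) missed the threshold by the same exact permutation test, although Cd4 of the last list rose by 1.27 on the log2 scale. Mitochondrially encoded genes took 7.38% to 10.5% of counts at 32-36 h and 6.87% to 8.44% at 22-26 h (exact permutation p = 0.00185). The part of these sums in the results was not tested. One of the 18 libraries, course 3 at 22 h, stood apart from the libraries within 2 h of it (5 of all 72 did), and results that rest on it are also given without it.

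The change between the windows was broad and, for most genes, small. Of 15341 genes tested with edgeR's quasi-likelihood test, 3683 (24%) were higher at 32-36 h and 3656 (23.8%) were lower at a Benjamini-Hochberg adjusted p under 0.05, 47.8% in either direction. The median log2 fold change was 0.325 among genes called higher and -0.398 among genes called lower, and 186 rose and 468 fell at least 2-fold. In 1283 genes (8.36% of those tested) no library of one window overlapped the other window. The direction was the same in each course for 3543 of the genes called higher and 3627 of those called lower. The balance between directions depended on scaling: with library size alone in place of TMM, 2402 genes were higher and 4564 lower, so that 34.5% of calls were higher.

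For the median called gene, the largest part of the change lay between 26 and 28 h. For each called gene the mean at every hour was placed on a scale where the 22-26 h mean is 0% and the 32-36 h mean is 100%. At 28 h the median gene had covered 77.6% of the distance among genes called higher and 77.1% among genes called lower, and at 30 h 83.9% and 87.2%. The hours 28 and 30 h took no part in the test. At 26 h the same medians were 24.1% and 21.9%. The largest single 2 h step lay between 26 and 28 h in 38.5% of the genes called higher and in 50.2% of those called lower. It lay between 22 and 24 h in 26.1% and 11.6%, and between 32 and 34 h in 17.8% and 21.6%.

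**Figure D1:**
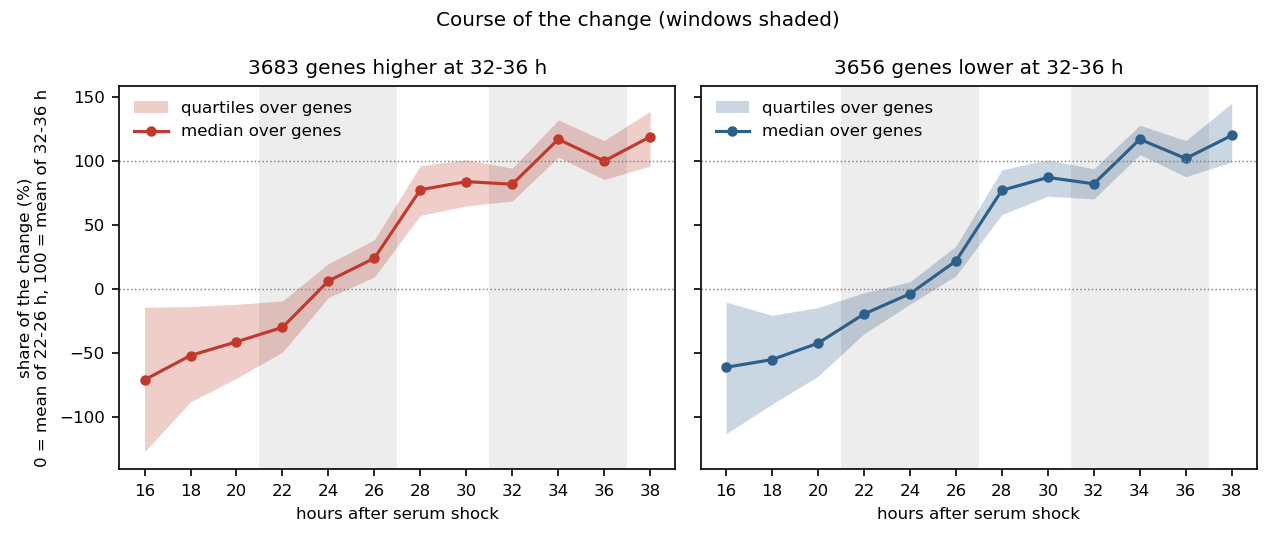
Share of the change between the windows (vertical axis, %) at each hour after serum shock (horizontal axis) for the 3683 genes called higher (left) and the 3656 called lower (right); lines are medians and bands quartiles over genes, and both windows are shaded. The medians stand at 24.1% and 21.9% at 26 h and at 77.6% and 77.1% at 28 h.

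The genes that copy DNA fell together. All 33 tested genes of a 34-gene list for origin licensing and S phase were lower at 32-36 h, beside 23.8% of all genes. Their median log2 fold change was -1.45, against a median of 0.01 over all genes tested. In 30 of the 33 the windows did not overlap, beside 8.36% of all genes. Of the 12 largest falls among genes with a mean of at least 5 CPM and separate windows, 7 belong to this list. Ccne1, which encodes cyclin E1, the CDK2 partner at entry into S phase, lies at chr7:38097984-38107534 on the minus strand of GRCm38. It had 0.572, 1.07 and 3.14 CPM at 32-36 h (lowest, median and highest library), against 3.86, 8.9 and 23.2 CPM at 22-26 h, a log2 fold change of -3.04 (SE 0.36, adjusted p = 5.9e-06). The highest libraries were course 1 and course 3 at 22 h, while course 2 at 22 h had 6.6 CPM. No library of one window reached the other, as the choice of the 12 largest falls required. Ccne2, for cyclin E2, had 2.72, 3.68 and 8.42 CPM at 32-36 h, against 12.1, 27.5 and 56.3 CPM at 22-26 h (log2 fold change -2.71, SE 0.28, adjusted p = 3.34e-06). Its exons overlap those of Ints8 on the other strand, and no source used here states whether counting used the strand.

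The enzymes that make DNA precursors followed the same course. Rrm2, the ribonucleotide reductase subunit that limits deoxynucleotide supply, had 5.69, 8.59 and 23.1 CPM at 32-36 h, against 42, 66.9 and 121 CPM at 22-26 h (log2 fold change -2.54, SE 0.30, adjusted p = 5.46e-06). Tk1, thymidine kinase, had 8.95, 11.7 and 27.5 CPM at 32-36 h and 42.1, 70.4 and 115 CPM at 22-26 h (log2 fold change -2.24). Neither gene had overlapping windows, which their place among the 12 largest falls required. Tk1 shares exon sequence with Afmid on the other strand. Mcm6, a subunit of the helicase that opens DNA at replication origins, had 20.1, 33 and 45.6 CPM at 32-36 h, against 69.3, 125 and 246 CPM at 22-26 h (log2 fold change -2.08, SE 0.23, adjusted p = 4.41e-06). Its mean was 320 ± 18.7 CPM at 16 h, 92.9 ± 21.4 CPM at 26 h and 38.5 ± 3.57 CPM at 28 h (SD, n = 3). Mcm5 of the same ring, Uhrf1, which carries DNA methylation through replication, Tcf19, a factor of the G1/S transition, and Pask, a PAS-domain kinase, fell by 1.95 to 2.32 on the log2 scale. Among the rest of the list, Pcna, the sliding clamp, averaged 107 ± 18.6 CPM at 32-36 h and 280 ± 86.3 CPM at 22-26 h (SD, n = 9; log2 fold change -1.36), and Lig1, the ligase that joins Okazaki fragments, fell by 1.52.

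Regulators of this programme fell as well. E2f7 and E2f8, the repressors that E2F activators induce late in S phase, fell by 2.33 and 2.04. E2f7 had 0.976, 2.2 and 5.05 CPM at 32-36 h, against 9.34, 13.1 and 21.2 CPM at 22-26 h (SE 0.29, adjusted p = 7.19e-06). Mybl2, the B-Myb protein that joins the MuvB core to activate mitotic genes, had 0.741, 1.27 and 2.84 CPM at 32-36 h, against 4.14, 9.31 and 17 CPM at 22-26 h (log2 fold change -2.55). Every 22-26 h library was above every 32-36 h library for each of these 3 genes. All of them are among the largest falls, for which separate windows were a condition. E2f7 and E2f8 overlap exons of predicted transcripts.

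**Figure D2:**
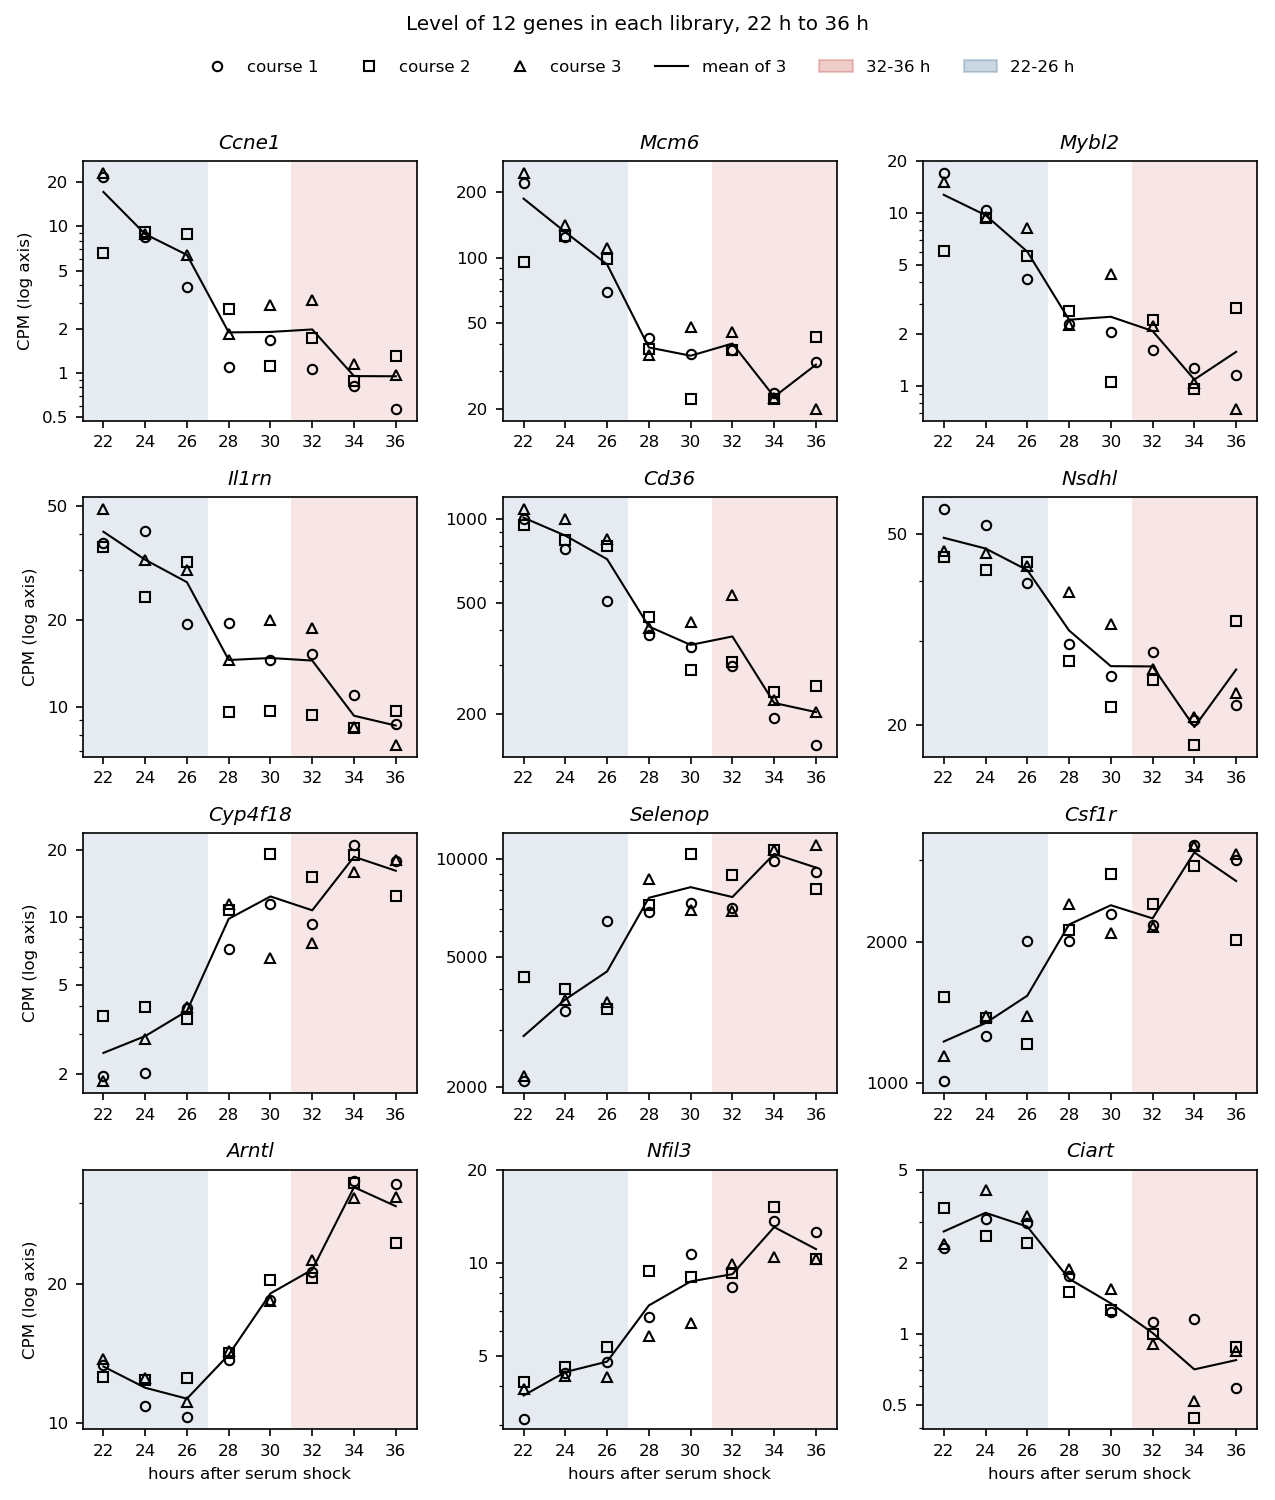
Level of 12 genes in each library (vertical axis, CPM, log axis) from 22 to 36 h after serum shock (horizontal axis); symbols are the 3 courses, the line is their mean, and the windows are shaded. Ccne1 lies between 0.572 and 3.14 CPM at 32-36 h and between 3.86 and 23.2 CPM at 22-26 h, and Arntl between 20.6 and 33.4 CPM at 32-36 h and between 10.3 and 13.8 CPM at 22-26 h.

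The promoters of 2 of these genes are shown because they hold the letters bound by E2F proteins. Mcm6 is of the S-phase list, and E2f7 was named from the list of G1 cyclins, Rb family and cell cycle inhibitors. The windows run from 250 bases before to 50 bases after the start (RefSeq, GRCm38.p6), and capitals mark TTCCCGC or TTGGCGC on either strand. The forms can overlap where they lie on opposite strands, and none of the matches shown does. Mcm6 is chr1:128359656-128359955 on the minus strand, and E2f7 is chr10:110745189-110745488 on the plus strand.
Mcm6: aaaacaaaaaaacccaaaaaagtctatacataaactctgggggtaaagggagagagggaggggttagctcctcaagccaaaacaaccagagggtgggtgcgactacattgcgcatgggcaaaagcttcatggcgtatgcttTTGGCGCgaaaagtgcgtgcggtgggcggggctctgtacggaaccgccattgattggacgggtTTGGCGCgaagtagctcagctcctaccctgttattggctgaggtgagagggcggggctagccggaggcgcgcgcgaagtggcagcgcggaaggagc
E2f7: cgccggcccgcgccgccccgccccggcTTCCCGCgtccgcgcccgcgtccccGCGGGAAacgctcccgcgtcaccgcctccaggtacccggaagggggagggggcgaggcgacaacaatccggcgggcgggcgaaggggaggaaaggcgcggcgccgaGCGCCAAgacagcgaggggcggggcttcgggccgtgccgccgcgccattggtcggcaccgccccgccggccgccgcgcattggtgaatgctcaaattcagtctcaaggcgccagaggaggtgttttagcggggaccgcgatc
Mcm6 holds TTGGCGC in 2 places, and E2f7 holds TTCCCGC in 2 places and TTGGCGC in 1. TTCCCGC stood in 11 of the 31 windows found for 26 of the 33 S-phase genes (35.5%), against 4.6% of all 32851 windows. It stood in 2 of 12 windows of the largest falls (16.7%) and in 0 of 31 G2 and mitosis windows. TTGGCGC stood in 6 of the 31 (19.4%), against 2.45% of all, and in 5 of the 31 G2 and mitosis windows (16.1%). These are matches of letters and not measured binding.

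Histone and mitotic genes fell too. All 18 tested replication-dependent histone genes (of 19 listed) were lower at 32-36 h, beside 23.8% of all genes. Their median log2 fold change was -1.45. At 28 h the median histone gene had covered 44.8% of the distance and the median G2 and mitosis gene 49.1%, against 76.1% for the S-phase list, a difference that was not tested. Hist1h1b, a linker histone, had 29.2, 70.1 and 136 CPM at 32-36 h, against 227, 263 and 348 CPM at 22-26 h (log2 fold change -1.64, SE 0.24, adjusted p = 2.6e-05). Its level at 24 h, 313 ± 11.2 CPM, was close to that at 16 h, 285 ± 25.6 CPM, and it fell to 130 ± 5.32 CPM by 32 h and 57.1 ± 6.89 CPM by 34 h (SD, n = 3). Histone genes are near-identical copies of each other, and values of single members are uncertain.

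Of 36 genes of G2 phase and mitosis, 30 were lower and 1 was higher, beside 23.8% and 24% among all genes. Their median was -0.64. Pbk, a mitotic kinase, had 4.79, 10.8 and 23.5 CPM at 32-36 h, against 38.6, 52.4 and 72.8 CPM at 22-26 h (log2 fold change -1.84, SE 0.25, adjusted p = 1.65e-05). Aurkb, the kinase of the chromosomal passenger complex, had 13.9, 29 and 42.5 CPM at 32-36 h and 53.1, 69.7 and 84.6 CPM at 22-26 h (log2 fold change -1.17). Mad2l1, of the spindle checkpoint, and Foxm1, the factor that activates mitotic genes, fell by 1.02 and 1.15, and only Foxm1 of these 4 had overlapping windows. The riser was Cenpa, the centromeric histone variant, at 158 ± 14.3 CPM at 32-36 h and 107 ± 35.1 CPM at 22-26 h (SD, n = 9; log2 fold change 0.58). Without course 1, 18 of the 36 were lower. All 20 genes for kinetochores and DNA repair in dividing cells were lower, with a median of -1.26, among them Brca1, of homologous recombination, Exo1, an exonuclease of mismatch repair, and Clspn, of the replication checkpoint, which fell by 1.45, 1.68 and 1.62.

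Top2a, the topoisomerase that untangles chromosomes before they separate, is shown for its promoter and was chosen after its values were seen. It averaged 272 ± 90.1 CPM at 32-36 h and 559 ± 85.5 CPM at 22-26 h (SD, n = 9; log2 fold change -1.01, SE 0.17, adjusted p = 0.00012). Capitals mark TTTGAA, the letters of the CHR element bound by DREAM and MuvB complexes, and CCAAT, bound by NF-Y, on either strand. They can overlap by 1 base, and the matches shown do not. The window is chr11:99024140-99024439 on the minus strand (RefSeq, GRCm38.p6).
Top2a: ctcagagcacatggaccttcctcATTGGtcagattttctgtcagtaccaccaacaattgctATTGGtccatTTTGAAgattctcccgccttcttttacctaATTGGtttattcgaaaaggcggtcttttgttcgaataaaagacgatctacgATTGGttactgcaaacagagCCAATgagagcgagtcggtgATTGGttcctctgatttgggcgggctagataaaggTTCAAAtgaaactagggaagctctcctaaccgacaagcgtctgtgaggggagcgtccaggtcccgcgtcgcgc
The window holds 8 such matches. TTTGAA stood in 24 of the 31 windows found for 28 of the 36 G2 and mitosis genes (77.4%), against 3 of 31 (9.68%) for the S-phase list and 17.9% of all windows. CCAAT stood in 80.6% of the G2 and mitosis windows, 64.5% of those of the S-phase list, 75% of those of the largest falls, 58.8% of those of the largest rises and 37.4% of all.

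The genes that set entry into the cycle moved in both directions. Of 26 G1 cyclins, Rb-family genes and inhibitors, 6 rose (3 without course 3) and 13 fell, beside 24% and 23.8% among all genes. Ccnd1, cyclin D1, the cyclin that mitogens induce, averaged 18.7 ± 11.4 CPM at 32-36 h and 148 ± 138 CPM at 22-26 h (SD, n = 9; log2 fold change -2.96, adjusted p = 5.26e-05). Cdk2, the partner of cyclin E, had 22.3, 25.4 and 29.1 CPM at 32-36 h and 35.8, 41.6 and 56.2 CPM at 22-26 h (log2 fold change -0.73), and Rbl1, the p107 pocket protein, fell by 1.19. The genes that rose, at a share near that of all genes, include Btg2 and Trp53inp1, chosen after their values were seen. Btg2, an antiproliferative gene, averaged 26.4 ± 3.31 CPM at 32-36 h and 17.6 ± 6.16 CPM at 22-26 h (log2 fold change 0.61). Trp53inp1, a p53 target, averaged 245 ± 18.4 CPM at 32-36 h and 165 ± 48.2 CPM at 22-26 h (log2 fold change 0.60). Immediate early and growth factor response genes counted 4 higher (2 without course 1) and 5 lower (2 without course 3) of 18 tested, near the 24% and 23.8% of all genes. Dusp6, which switches off ERK signalling, had 6.97, 8.92 and 30.5 CPM at 32-36 h, against 10.6, 42.3 and 149 CPM at 22-26 h (log2 fold change -2.36, SE 0.43, adjusted p = 0.0002). The highest 32-36 h library, course 3 at 32 h, lies within the 22-26 h range. Spry2, another inhibitor of growth factor signalling, fell by 1.27, while Ier2 and Ier3, both immediate early genes, rose by 0.48 and 0.63.

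**Figure D3:**
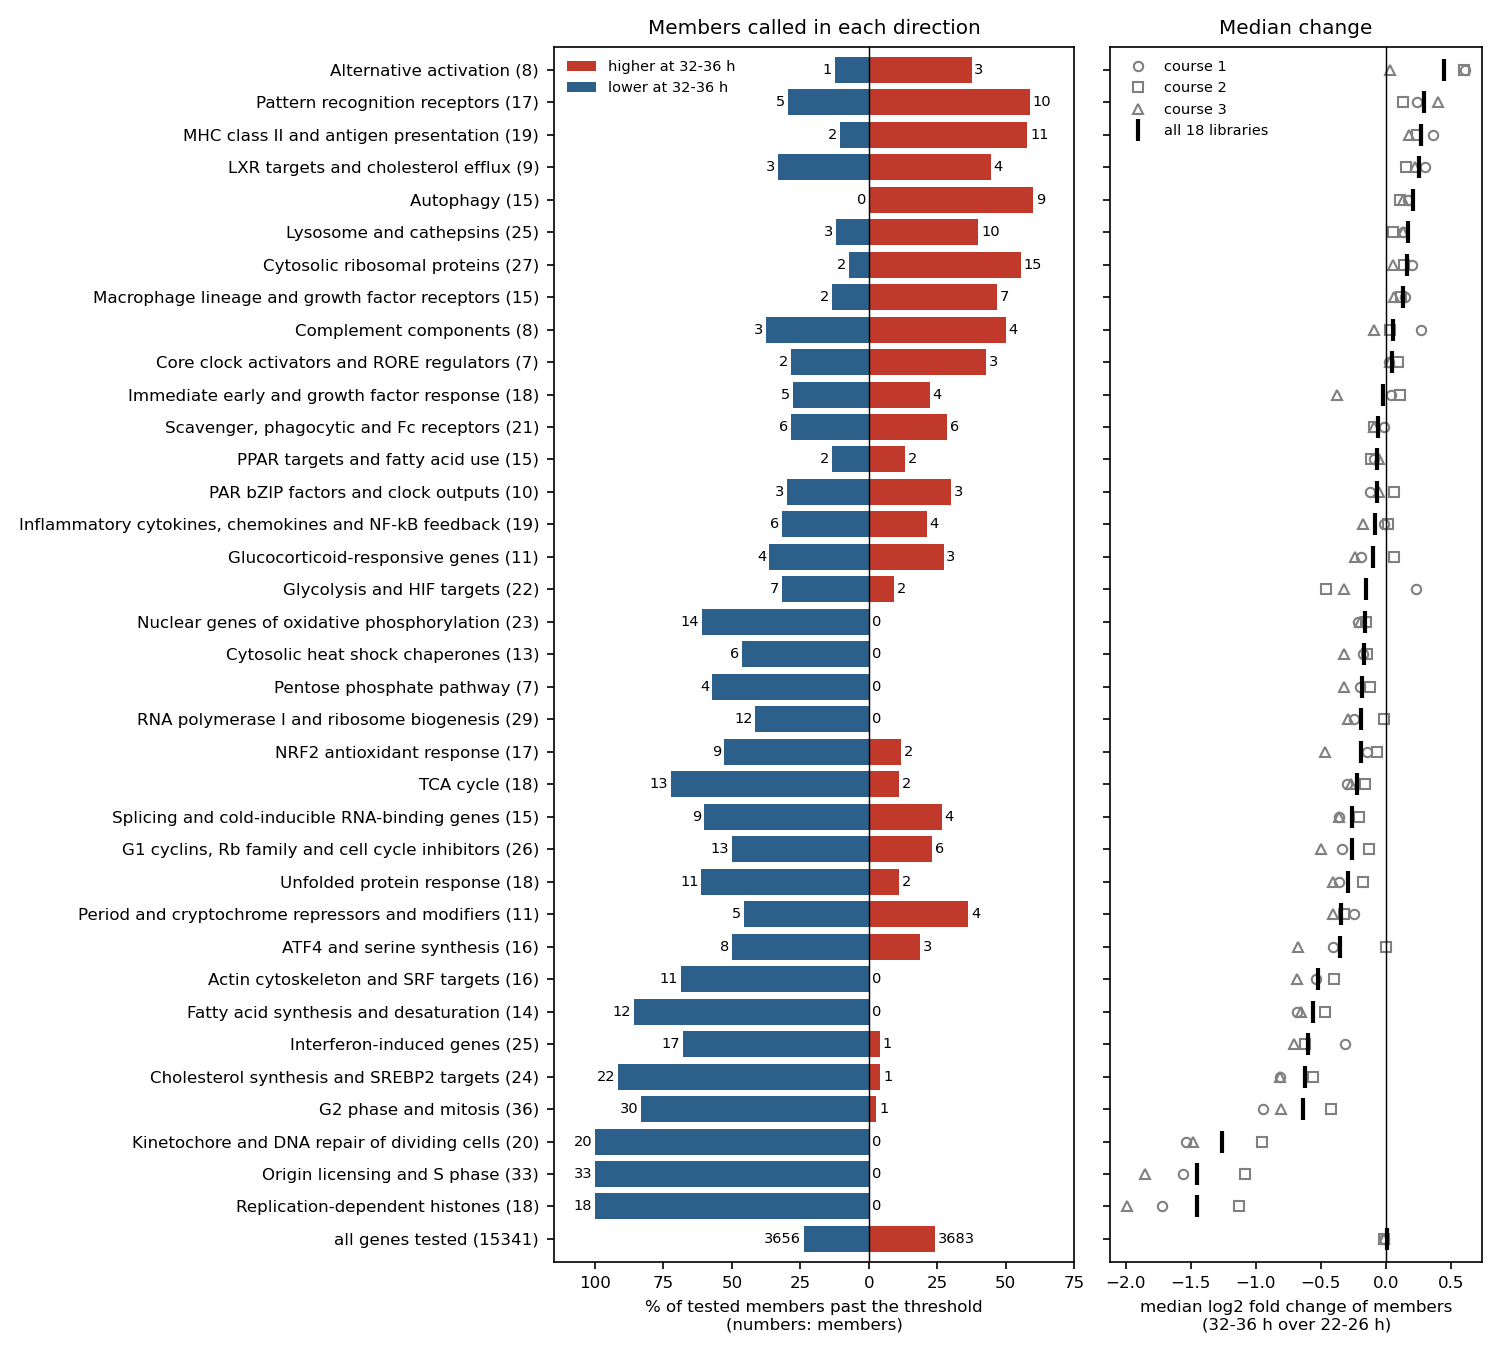
Share of tested members past the threshold (left panel, %, with the number of members; red bars are higher and blue bars lower at 32-36 h) and median log2 fold change of the members (right panel; symbols are single courses and black bars all 18 libraries) for 36 gene lists and for all genes tested. S-phase and histone lists stand at medians of -1.45, and 0 of their members rose.

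The 12 largest rises among genes with a mean of at least 5 CPM and separate windows took in lipid-handling genes, surface receptors and the clock genes Arntl and Nfil3. Cyp4f18, a cytochrome P450 that hydroxylates the lipid mediator leukotriene B4, had 7.66, 16 and 21 CPM at 32-36 h, against 1.85, 3.51 and 3.98 CPM at 22-26 h (log2 fold change 2.33, SE 0.21, adjusted p = 1.15e-06). Every 32-36 h library lay above every 22-26 h library, and the mean went on to 29.9 ± 0.418 CPM at 46 h (SD, n = 3). Selenop, the selenium carrier selenoprotein P, had 6900, 9130 and 11000 CPM at 32-36 h and 2090, 3650 and 6460 CPM at 22-26 h (log2 fold change 1.33, SE 0.17, adjusted p = 1.03e-05). Both genes overlap exons of a neighbour on the other strand, Zfp961 for Cyp4f18 and Ccdc152 for Selenop. Cyp27a1, which makes oxysterols and bile acid precursors, had 44.6, 61.3 and 86.1 CPM at 32-36 h and 11.6, 24.1 and 38.5 CPM at 22-26 h (log2 fold change 1.49). Clec4a3 and Clec7a, C-type lectin receptors of which the second (Dectin-1) binds fungal glucans, rose by 1.36 and 1.24, and Ctsf, a lysosomal protease, by 1.31. Spata13, a guanine nucleotide exchange factor, Arl5c, a small GTPase, and Adamtsl4, a matrix protein, rose by 1.23, 1.21 and 1.18. The windows did not overlap in any of these 9 genes, which was a condition of their selection.

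Genes of lipid synthesis fell. Of 24 genes of cholesterol synthesis and SREBP2 targets, 22 were lower and 1 higher, beside 23.8% and 24% among all genes. Their median log2 fold change was -0.62. Hsd17b7 and Lss, enzymes of the sterol branch, averaged 12.1 ± 4.55 and 45.9 ± 16.6 CPM at 32-36 h, against 30.8 ± 11.2 and 104 ± 20.5 CPM at 22-26 h (SD, n = 9; log2 fold changes -1.33 and -1.16). Nsdhl, which removes methyl groups from sterols, had 18.2, 23.3 and 33 CPM at 32-36 h and 39.6, 44.9 and 56.5 CPM at 22-26 h (log2 fold change -0.90, SE 0.096, adjusted p = 3.73e-06). Dhcr7 and Mvk, at the last step and near the first of the pathway, fell by 0.63 and 0.78. The riser was Fdft1, squalene synthase (log2 fold change 0.63), whose exons overlap those of Ctsb, a far more abundant cathepsin gene that rose by 0.47. Of 14 genes of fatty acid synthesis and desaturation, 12 fell and 0 rose. Acly, which supplies cytosolic acetyl-CoA, had 174, 217 and 270 CPM at 32-36 h and 284, 338 and 391 CPM at 22-26 h (log2 fold change -0.61), and Fads2, a desaturase, and Elovl6, an elongase, fell by 1.3 and 1.19.

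Of the targets of the sterol-sensing LXR receptors and genes of cholesterol efflux, 9 were tested of 12 listed. Of these, 4 rose and 3 fell, beside 24% and 23.8% among all genes. Abca1, the pump that loads cholesterol onto lipoproteins, had 672, 847 and 1200 CPM at 32-36 h, against 189, 437 and 705 CPM at 22-26 h (log2 fold change 1.11, SE 0.20, adjusted p = 0.000161). Pltp, phospholipid transfer protein, had 902, 1310 and 1530 CPM at 32-36 h and 371, 594 and 732 CPM at 22-26 h (log2 fold change 1.17), and it shares exon sequence with Ctsa. Apoe, the apolipoprotein that carries the exported lipid, had 5110, 6990 and 9340 CPM at 32-36 h and 2320, 4240 and 4940 CPM at 22-26 h (log2 fold change 0.85). The windows overlapped for Abca1 and were separate for Apoe. They were also separate for Pltp, which its place among the 12 largest rises required. Nr1h3, the LXR alpha receptor itself, fell by 0.41. On the uptake side, Cd36, a receptor for oxidised lipoprotein and fatty acids, had 155, 240 and 534 CPM at 32-36 h, against 511, 847 and 1090 CPM at 22-26 h (log2 fold change -1.68, SE 0.19, adjusted p = 4.91e-06). Course 3 at 32 h alone reached into the 22-26 h range. Among the other 14 tested genes of PPAR targets and fatty acid use, Acadl, of fatty acid oxidation, fell by 0.24, and Ppard, the receptor, rose by 0.49. Angptl4, an inhibitor of lipoprotein lipase, rose by 0.63 but missed the threshold without course 2. It also missed it in a quasi-likelihood fit of 36 libraries with the second-day windows added (adjusted p = 0.177).

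Genes of energy metabolism fell by small amounts. Among all genes tested, 23.8% were lower and 24% higher. Of 18 genes of the TCA cycle 13 were lower and 2 higher (0 with library size alone), and of 23 tested nuclear genes of oxidative phosphorylation 14 were lower and 0 higher, while the mitochondrially encoded share of counts was the higher one at 32-36 h. Cox5a, a subunit of cytochrome c oxidase, had 48.5, 53 and 58.3 CPM at 32-36 h and 60.3, 68 and 77 CPM at 22-26 h (log2 fold change -0.33, SE 0.05, adjusted p = 3.74e-05), with separate windows. Idh3a, of isocitrate dehydrogenase, fell by 0.91, and Sdhc and Mdh2, of succinate and malate dehydrogenase, by 0.38 and 0.45. Of 22 glycolytic genes and HIF targets 7 fell (4 without course 2) and 2 rose, beside 23.8% and 24% among all genes. The courses differed, with medians of 0.23 in course 1, -0.46 in course 2 and -0.33 in course 3. Pkm, pyruvate kinase, had 647, 884 and 1210 CPM at 32-36 h and 1120, 1730 and 1930 CPM at 22-26 h (log2 fold change -0.86), and Hk1, a hexokinase, fell by 0.40. The risers were Hk2, a second hexokinase, and Vegfa, the vascular growth factor, with log2 fold changes of 0.45 and 0.58, and neither was called without course 1. In the pentose phosphate pathway 4 of 7 genes fell (2 without course 3) and 0 rose, Tkt, transketolase, by 0.31.

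Chaperone and stress response lists had more members that fell than rose, while 23.8% of all genes fell and 24% rose. Of 18 genes of the unfolded protein response 11 fell and 2 rose (0 with library size alone), with a median of -0.29. Calr, the calcium-binding chaperone of the endoplasmic reticulum, had 492, 589 and 679 CPM at 32-36 h and 729, 1000 and 1260 CPM at 22-26 h (log2 fold change -0.81, SE 0.084, adjusted p = 3.44e-06). Sdf2l1, a partner of the chaperone BiP, and Pdia6, a disulphide isomerase, fell by 0.93 and 0.65. Of 13 cytosolic heat shock genes 6 fell and 0 rose, Hsp90aa1, the inducible HSP90, to 56.3, 63.5 and 77.3 CPM at 32-36 h, against 84.8, 123 and 196 CPM at 22-26 h. Of 16 genes of ATF4 and serine synthesis 8 fell and 3 rose (1 with library size alone, without course 1 or course 2, or without the library that stood apart): Psat1 and Phgdh, of serine synthesis, fell by 1.41 and 1.14, and Mthfd2, of mitochondrial folate metabolism, by 1.31. Of 17 NRF2 targets 9 fell and 2 rose, Txnrd1, thioredoxin reductase, by 0.87, Prdx1, a peroxiredoxin, by 0.56 and Nqo1, a quinone reductase, by 0.83, while Gstm1, a glutathione transferase, rose by 0.71. Of 15 splicing and cold-inducible RNA-binding genes 9 fell and 4 rose (2 without course 1). Srsf3, a splicing factor, had 51, 57.5 and 70.4 CPM at 32-36 h and 87.9, 113 and 139 CPM at 22-26 h (log2 fold change -0.90, SE 0.082, adjusted p = 1.45e-06).

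Of 27 tested cytosolic ribosomal protein genes 15 rose and 2 fell, beside 24% and 23.8% among all genes. Their log2 fold changes lay between -0.47 and 0.52. The count was 1 higher and 1 lower without course 1, 9 higher without course 2 or without the 34 h time point, 5 higher with library size alone and 3 higher with counts summed per course and window. Rps14 of the small subunit had 336, 384 and 454 CPM at 32-36 h and 260, 335 and 379 CPM at 22-26 h (log2 fold change 0.29, not called without course 1), with overlapping windows. Of 29 genes of RNA polymerase I and ribosome biogenesis 12 fell and 0 rose, beside 23.8% and 24% among all genes. The number that fell was 4 without course 1, 2 without course 3, and 7, 6 and 4 without the hours 22, 32 and 34 h. Among all genes, 2733 of 15478 fell without course 1 and 2856 of 15442 without course 3. Rrp9, of ribosomal RNA processing, and Nop56, a core protein of box C/D particles, fell by 0.60 and 0.82. Of 16 actin and SRF target genes 11 fell and 0 rose, beside 23.8% and 24% among all genes. Flna, the actin crosslinker filamin A, had 409, 477 and 505 CPM at 32-36 h and 586, 749 and 1000 CPM at 22-26 h (log2 fold change -0.68, SE 0.078, adjusted p = 4.9e-06), and Tpm1, tropomyosin, Actg1, gamma actin, and Tagln2, transgelin 2, fell by 0.55, 0.59 and 0.86, all with separate windows.

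Genes of antigen presentation rose and interferon-induced genes fell. Of 19 genes of MHC class II and antigen presentation 11 rose (7 without course 1) and 2 fell. Among all genes 24% rose and 23.8% fell. The median of the list was 0.27. H2-D1, a class I heavy chain, had 3190, 3700 and 4240 CPM at 32-36 h and 2170, 2650 and 3230 CPM at 22-26 h (log2 fold change 0.54, SE 0.074, adjusted p = 1.57e-05). H2-Aa, a class II chain, had 4.17, 6.4 and 9.47 CPM at 32-36 h and 1.56, 2.76 and 3.92 CPM at 22-26 h (log2 fold change 1.23). Ciita, the activator of class II genes, averaged 1.51 ± 0.548 CPM at 32-36 h and 0.645 ± 0.31 CPM at 22-26 h (SD, n = 9; log2 fold change 1.25). The class II and Cd74 levels were low in all 18 libraries beside Lyz2, a macrophage marker with means of 15100 CPM at 32-36 h, against 13300 CPM at 22-26 h. Ighm of B cells, with a mean of 31 CPM at 32-36 h and 13.1 CPM at 22-26 h, also rose while Igkc of B cells was at 0 in all 18. The 8 B cell markers summed to between 19.02 and 44.7 CPM at 32-36 h, against 6.924 to 26.49 CPM at 22-26 h, nearly all of it Ighm, and their part in the class II result was not tested. In bulk samples fewer cells of a type and less RNA per cell cannot be told apart. Class I genes are close paralogs, and their values are uncertain. Cd86, a co-stimulatory ligand, rose by 0.65, and Cd40, a co-stimulatory receptor, fell by 0.86.

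Of 25 interferon-induced genes 17 fell and 1, Gbp3, rose, beside 23.8% and 24% among all genes. Their median was -0.60. Oas1a, a sensor of double-stranded RNA, had 36.6, 47.6 and 55 CPM at 32-36 h and 55.2, 85.3 and 148 CPM at 22-26 h (log2 fold change -0.83, SE 0.14, adjusted p = 7.43e-05). Bst2, the virus tether, Stat2, of the interferon signal, and Oas3 fell by 0.82, 0.63 and 1.03, and course 3 at 22 h was the highest library for all 4 genes. Without the library that stood apart 15 of the 25 fell, without course 3 there were 9, without course 2 there were 11, and without the 36 h time point 8.

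Of 19 tested cytokines, chemokines and NF-kB feedback genes (of 23 listed) 6 fell and 4 rose (2 without the 26 h or the 36 h time point), beside 23.8% lower and 24% higher among all genes. Il1rn, the IL-1 receptor antagonist, had 7.36, 9.36 and 18.8 CPM at 32-36 h and 19.5, 32.4 and 48.9 CPM at 22-26 h (log2 fold change -1.61, SE 0.19, adjusted p = 5.46e-06). Ccl7 and Ccl2, monocyte-attracting chemokines, fell by 2.89 and 2.70 with wide ranges at 22-26 h: Ccl7 had 0.907, 1.92 and 3.86 CPM at 32-36 h, against 2.32, 7.14 and 63.6 CPM at 22-26 h, and its windows overlapped. Cxcl16, a membrane-bound chemokine and lipoprotein receptor, had 97.8, 133 and 147 CPM at 32-36 h and 56.7, 82.2 and 95.4 CPM at 22-26 h (log2 fold change 0.69). Of 17 tested pattern recognition receptors 10 rose and 5 fell (3 without course 1). Tlr9, the DNA sensor, had 5.49, 8.33 and 13.5 CPM at 32-36 h and 2.12, 3.95 and 7.14 CPM at 22-26 h (log2 fold change 1.19), and Ly96, the TLR4 partner MD-2, and Nod1, a sensor of bacterial wall fragments, rose by 0.52 and 0.39.

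Of 21 tested scavenger, phagocytic and Fc receptors 6 rose and 6 fell, near the 24% and 23.8% of all genes. Msr1, scavenger receptor A, had 39.1, 45.9 and 114 CPM at 32-36 h, against 83.7, 196 and 464 CPM at 22-26 h (log2 fold change -2.11, SE 0.27, adjusted p = 1.06e-05). Its single overlapping 32-36 h library was course 3 at 32 h. Mrc1, the mannose receptor, fell by 0.70, with 1110, 1450 and 2090 CPM at 32-36 h and 2240, 2410 and 2900 CPM at 22-26 h. Mertk, which recognises dying cells, had 211, 232 and 290 CPM at 32-36 h and 106, 151 and 184 CPM at 22-26 h (log2 fold change 0.70, SE 0.09, adjusted p = 9.75e-06). Stab2, a scavenger of hyaluronan, rose by 1.38. C5ar1, the receptor for the complement fragment C5a, fell by 0.64 among 8 tested complement genes. Of these, 4 rose and 3 fell, beside 24% and 23.8% among all genes. The number that rose was 2 with library size alone, 1 without course 1 or course 2 and 0 without the 34 h time point. Of 8 tested genes of alternative activation 3 rose and 1 fell, beside 24% and 23.8% among all genes. Clec10a, a galactose-type lectin, and Il4ra, the IL-4 receptor, rose by 0.98 and 0.48. Ccl24, an eosinophil chemokine, had 0.547, 1.16 and 1.43 CPM at 32-36 h and 0.0193, 0.407 and 1.56 CPM at 22-26 h, and its call (adjusted p = 0.0403) was lost with library size alone, without course 2 and without course 3.

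Several receptors for growth factors rose, as did 10 of 25 lysosomal and 9 of 15 autophagy genes, beside 24% of all genes. Csf1r, the M-CSF receptor, had 2020, 2900 and 3220 CPM at 32-36 h, against 1010, 1380 and 2010 CPM at 22-26 h (log2 fold change 1.00, SE 0.12, adjusted p = 7.86e-06). The windows meet and do not overlap, and Hmgxb3 shares exon sequence with it on the other strand. Csf3r and Csf2rb, receptors for G-CSF and for the GM-CSF family, rose by 0.96 and 0.61, and of the list of macrophage lineage genes and growth factor receptors 7 of 15 tested rose (4 with counts summed per course and window) and 2 fell. Of the lysosomal genes 3 fell (6 with library size alone). Ctsd, cathepsin D, had 2850, 2930 and 3490 CPM at 32-36 h and 1850, 2230 and 2430 CPM at 22-26 h (log2 fold change 0.47, SE 0.057, adjusted p = 6.65e-06), and Hexa, a hexosaminidase, and Lamp1, of the lysosomal membrane, rose by 0.60 and 0.47. Of 15 tested autophagy genes 9 rose and 0 fell (6 and 1 with library size alone), and without course 3 there were 5. Map1lc3a, of the LC3 family that coats autophagosomes, had 16.9, 18.9 and 21.2 CPM at 32-36 h and 6.6, 11.5 and 14.7 CPM at 22-26 h (log2 fold change 0.79), and Atg5 and Atg7, of the LC3 conjugation system, rose by 0.21 and 0.24. Of 11 tested glucocorticoid-responsive genes 4 fell and 3 rose, beside 23.8% lower and 24% higher among all genes, and 0 rose with library size alone, without course 1 or without the 24 h time point. Fkbp5, a co-chaperone of the glucocorticoid receptor, had 2.2, 2.75 and 4.02 CPM at 32-36 h and 5.32, 7.76 and 16.8 CPM at 22-26 h (log2 fold change -1.63, SE 0.21, adjusted p = 9.73e-06).

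Clock genes moved in both directions. Arntl, the partner of CLOCK, had 20.6, 30.7 and 33.4 CPM at 32-36 h, against 10.3, 12.5 and 13.8 CPM at 22-26 h (log2 fold change 1.22, SE 0.10, adjusted p = 9.41e-07). Every 32-36 h library was above every 22-26 h library, and the mean had covered 18.1% of the distance at 28 h, against 77.6% for the median gene called higher, and 56% at 30 h. Its exons overlap a predicted transcript, Gm45355, on the other strand. Npas2, which can take the place of CLOCK, rose by 0.78 (not called without course 1), and Clock itself had 55.4, 60.3 and 66 CPM at 32-36 h and 52.8, 59.3 and 68.9 CPM at 22-26 h (log2 fold change 0.05, adjusted p = 0.418). Nfil3, the repressor E4BP4 and a target of Rev-erb proteins, had 8.36, 10.3 and 15.1 CPM at 32-36 h, against 3.14, 4.32 and 5.33 CPM at 22-26 h (log2 fold change 1.39, SE 0.11, adjusted p = 9.41e-07), again with separate windows. Arntl and Nfil3 are among the 12 largest rises, for which separate windows were a condition.

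The Rev-erb genes went the other way. Nr1d1 (Rev-erb alpha), which represses Arntl and Nfil3, had 5.34, 7.07 and 8.21 CPM at 32-36 h, against 9.45, 10.2 and 14.9 CPM at 22-26 h (log2 fold change -0.60, SE 0.099, adjusted p = 7.63e-05). Nr1d2 (Rev-erb beta) had 60.4, 76.4 and 95.1 CPM at 32-36 h and 90.7, 133 and 153 CPM at 22-26 h (log2 fold change -0.76). The windows were separate for Nr1d1, whose exons overlap Thra on the other strand, and overlapped for Nr1d2. Rora, an activator at the same sites, and Cry1, a repressor of CLOCK and ARNTL, rose by 0.32 and 0.38, but both missed the threshold with library size alone and without any one of the 3 courses.

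Among the repressors, Ciart, also called Chrono, which blocks the CLOCK and ARNTL pair, had 0.441, 0.884 and 1.16 CPM at 32-36 h, against 2.33, 2.96 and 4.11 CPM at 22-26 h (log2 fold change -1.80, SE 0.18, adjusted p = 2.79e-06). No library was shared between the ranges. Per1 and Cry2 fell by 0.53 and 0.54. Per2 had 2.14, 4.48 and 7.68 CPM at 32-36 h and 4.67, 6.88 and 9.89 CPM at 22-26 h (log2 fold change -0.64, adjusted p = 0.0185). It was at 8.34 ± 1.01 CPM at 28 h, 6.5 ± 1.03 CPM at 32 h and 2.72 ± 0.572 CPM at 36 h (SD, n = 3), and its call was lost without course 1, without course 2 and without any of the hours 24, 26, 34 and 36. The alleles carry the reporter, and what it does to the counts was not tested. Bhlhe41 (DEC2), a repressor of the same E-boxes, fell by 0.39 (not called without course 3 or without the 34 h time point). Its fall was also not called in the quasi-likelihood fit of 36 libraries (adjusted p = 0.135). Its paralog Bhlhe40 had a log2 fold change of -0.35 (adjusted p = 0.102). Csnk1d and Csnk1e, kinases that mark Period proteins, rose by 0.16 and 0.35, and the call of Csnk1d was lost with library size alone and without course 3. Arntl2 and Fbxl21 had log2 fold changes of 0.05 and 0.07 (adjusted p = 0.854 and 0.733). Of 10 tested PAR bZIP factors and clock outputs 3 rose and 3 fell (24% and 23.8% among all genes), Wee1, the mitotic inhibitor kinase, by 0.63.

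The promoters of Ciart and Arntl are shown because these genes carried the largest changes among the 18 tested clock genes, in opposite directions. In Ciart, chr3:95882179-95882478 on the minus strand, capitals mark CACGTG, the E-box bound by CLOCK and ARNTL, which reads the same on both strands. In Arntl, chr7:113207261-113207560 on the plus strand, capitals mark AGGTCA on either strand, the core letters bound by ROR and Rev-erb proteins, which were chosen after the values were seen.
Ciart: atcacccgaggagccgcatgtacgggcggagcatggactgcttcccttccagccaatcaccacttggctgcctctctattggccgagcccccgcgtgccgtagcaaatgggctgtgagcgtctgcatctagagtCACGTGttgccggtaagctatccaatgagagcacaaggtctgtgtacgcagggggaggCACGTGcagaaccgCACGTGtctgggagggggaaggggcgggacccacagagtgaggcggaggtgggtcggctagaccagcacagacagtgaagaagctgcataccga
Arntl: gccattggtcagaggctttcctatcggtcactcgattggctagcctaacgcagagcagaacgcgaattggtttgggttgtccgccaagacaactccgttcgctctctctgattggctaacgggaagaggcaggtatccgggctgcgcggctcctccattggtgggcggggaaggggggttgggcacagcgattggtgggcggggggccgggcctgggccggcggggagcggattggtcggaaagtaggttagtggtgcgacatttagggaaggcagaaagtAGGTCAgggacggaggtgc
Ciart holds CACGTG in 3 places and Arntl holds AGGTCA in 1. Arntl has 2 such windows, and the one with the most matches, or the first if tied, is shown. CACGTG stood in 4 of 21 windows found for 14 of the 18 tested clock genes (19%), against 7.15% of all windows, and AGGTCA also in 4 of 21, against 16.3% of all. The windows and sequences are those of RefSeq (GRCm38.p6). AGGTCA and CACGTG can overlap by the letters CA.

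The same hours 1 day later gave another picture. In a fit of 36 libraries with 16264 genes tested, 3395 genes (20.9%) were higher and 3724 (22.9%) lower at 32-36 h than at 22-26 h (43.8% in either direction), while 1211 (7.45%) were higher and 979 (6.02%) lower at 56-60 h than at 46-50 h (13.5% in either direction). The 2 changes differed in 6913 genes (42.5%; first day above second in 19.6% and below it in 22.9%), and in 5360 (75.3%) of the 7119 called on the first day. Of the genes called on both days, 81 were higher on both, 196 lower on both, 335 higher and then lower, and 495 lower and then higher. Of the 36 libraries 3 stood apart, and the second-day counts changed when single courses were left out. Without the 3 libraries 276 genes were higher and 557 lower on the second day, 99 were lower and then higher, 185 were higher and then lower, and 69.1% of the first-day calls differed between days. Without course 1 the second day had 20 higher and 62 lower genes, and without course 3 it had 2 and 20, beside 2724 and 3688 genes at an unadjusted p under 0.05.

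The S-phase genes were at low levels throughout the second day. Of the 33 S-phase genes 1 was lower and 0 were higher at 56-60 h than at 46-50 h, beside 6.02% and 7.45% of all genes. Their median log2 fold change was -0.09. The change differed between the days for 31 of them, beside 42.5% of all genes. Ccne1 had 0.908, 1.3 and 1.66 CPM at 56-60 h and 0.513, 0.997 and 1.3 CPM at 46-50 h (adjusted p = 0.226), and Mcm6 had 10.9, 11.8 and 14.3 CPM at 56-60 h and 10.8, 13.2 and 14.9 CPM at 46-50 h (adjusted p = 0.844). Both windows of the second day lie below every 22-26 h library for both genes. Histone and mitotic genes were lower: 11 of 18 histone genes and 18 of 36 G2 and mitosis genes were lower at 56-60 h than at 46-50 h, and 4 and 10 without the libraries that stood apart. Hist1h1b had 2.01, 4.33 and 5.96 CPM at 56-60 h and 5.82, 7.57 and 10.2 CPM at 46-50 h (log2 fold change -0.94, adjusted p = 0.00635, and 0.0389 without those libraries). Of the 8 genes named for falling on both days, which are Dtl, of the ligase that clears licensing factors, Cenpm, a centromere protein, and 6 histone genes, Hist1h1b alone kept its second-day call without them.

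**Figure D4:**
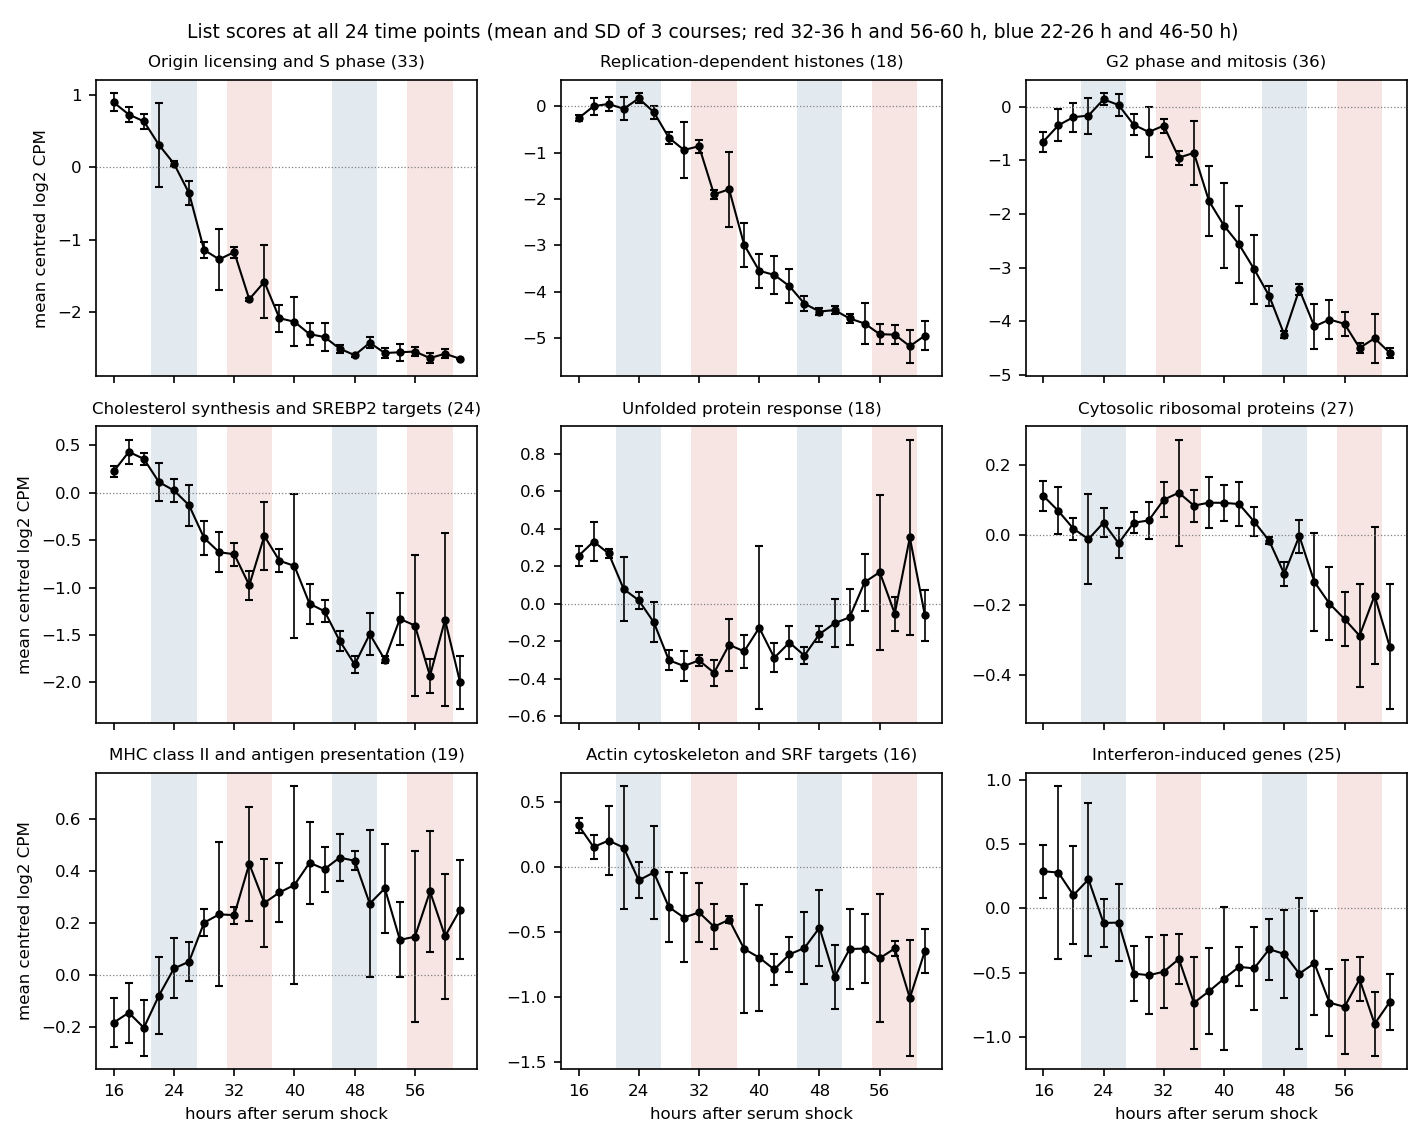
Mean level of the members of 9 gene lists (vertical axis, log2 CPM centred on each member's 22-26 h mean; number of members in brackets) at all 24 hours after serum shock (horizontal axis); points are means and bars SDs of 3 courses, with 32-36 h and 56-60 h in red and 22-26 h and 46-50 h in blue. The S-phase list has levelled off by 46-50 h, where its second-day median change is -0.09, and the unfolded protein response list is lower at 32-36 h and has wide bars at 56-60 h.

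Several lists moved the other way on the second day. Among all genes, 7.45% rose and 6.02% fell on that day. Without the libraries that stood apart, 276 rose and 557 fell of 16410. Of 18 genes of the unfolded protein response 13 rose and 0 fell at 56-60 h relative to 46-50 h, and 7 rose and 1 fell without the libraries that stood apart. Calr had 748, 824 and 1640 CPM at 56-60 h and 555, 651 and 791 CPM at 46-50 h (log2 fold change 0.54, adjusted p = 0.00421), against a log2 fold change of -0.82 in the same fit on the first day. Of 15 splicing and cold-inducible RNA-binding genes 8 rose and 0 fell on the second day (3 and 0 without those libraries). Srsf3 had 67.8, 81.2 and 84.5 CPM at 56-60 h and 56, 58.8 and 70.5 CPM at 46-50 h, and its 2 changes differed by -1.26 on the log2 scale (adjusted p = 3.86e-10). For ribosome biogenesis 11 of 29 rose with all libraries, but 1 rose and 2 fell without the 3. The ribosomal proteins went down on the second day: 15 of 27 fell and 0 rose (17 and 0 without those libraries). Rpl11 of the large subunit had 44.5, 50.8 and 59.2 CPM at 56-60 h and 54.8, 73.7 and 82.8 CPM at 46-50 h (log2 fold change -0.48, adjusted p = 0.000117). The translation factors Eif4b, a helper of the initiation helicase, and Eif3e, of the scaffold complex eIF3, also rose and then fell, Eif4b with log2 fold changes of 0.46 on the first day and -0.50 on the second and Eif3e with 0.40 and -0.38. Glycolytic genes and HIF targets fell in 15 of 22 on the second day and in 17 without those libraries.

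Among the other genes named for the clearest differences between the days, AB124611 had log2 fold changes of 0.59 on the first day and -0.34 on the second. Gmds, of GDP-fucose synthesis, Ptma, prothymosin alpha, and Hsd17b12, of fatty acid elongation, had first-day log2 fold changes of -1.43, -0.84 and -1.17 and second-day changes of 0.43, 0.20 and 0.37. None of these 3 second-day rises kept its call without the libraries that stood apart (adjusted p = 0.0761 to 0.178), while the differences did.

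Part of the clock repeated its change over these windows and part did not. Whether windows 24 h apart hold the same clock phase was not tested. Arntl had its lowest mean at 26 h (11.3 ± 1.09 CPM), inside the first window. It reached 38 ± 5.32 CPM at 42 h and was low again at 54 h (19.3 ± 3.68 CPM), between the second-day windows (SD, n = 3). Nr1d1 had 4.55, 8.44 and 8.95 CPM at 56-60 h, against 11.5, 16.4 and 18.7 CPM at 46-50 h (log2 fold change -1.06, SE 0.12, adjusted p = 1.95e-06), a larger fall than on the first day with all libraries (difference 0.44, adjusted p = 0.0308) but not called without those that stood apart (difference 0.30, adjusted p = 0.11). Nr1d2, Per1 and Cry2 fell by 0.62, 0.71 and 0.59 on the second day, next to first-day changes of -0.78, -0.54 and -0.56 in the same fit, and their differences were not called. Cry1 had 12.5, 13.6 and 21.2 CPM at 56-60 h and 5.19, 9.07 and 12.8 CPM at 46-50 h (log2 fold change 0.76). Arntl had 15.5, 27.5 and 36.4 CPM at 56-60 h and 14.9, 25.4 and 30.3 CPM at 46-50 h (log2 fold change 0.11, adjusted p = 0.614), and its 2 changes differed by 1.09 (adjusted p = 2.53e-05). Nfil3 likewise had 10, 13.7 and 21.1 CPM at 56-60 h and 9.63, 12.8 and 16.5 CPM at 46-50 h (adjusted p = 0.434), so that both of its second-day windows lay above every 22-26 h library. Ciart had 0.726, 0.963 and 2.53 CPM at 56-60 h and 1.16, 1.79 and 2.34 CPM at 46-50 h (log2 fold change -0.52, adjusted p = 0.104, and 0.000656 without the libraries that stood apart). Per2 fell by 0.68 with all libraries (adjusted p = 0.0349) and was not called without them (adjusted p = 0.138). Bhlhe41 rose by 0.64 (adjusted p = 0.0493), was not called with the course as a block (adjusted p = 0.0516) or without those libraries (adjusted p = 0.735), and had a highest library of 489 CPM against a median of 163 CPM.

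**Figure D5:**
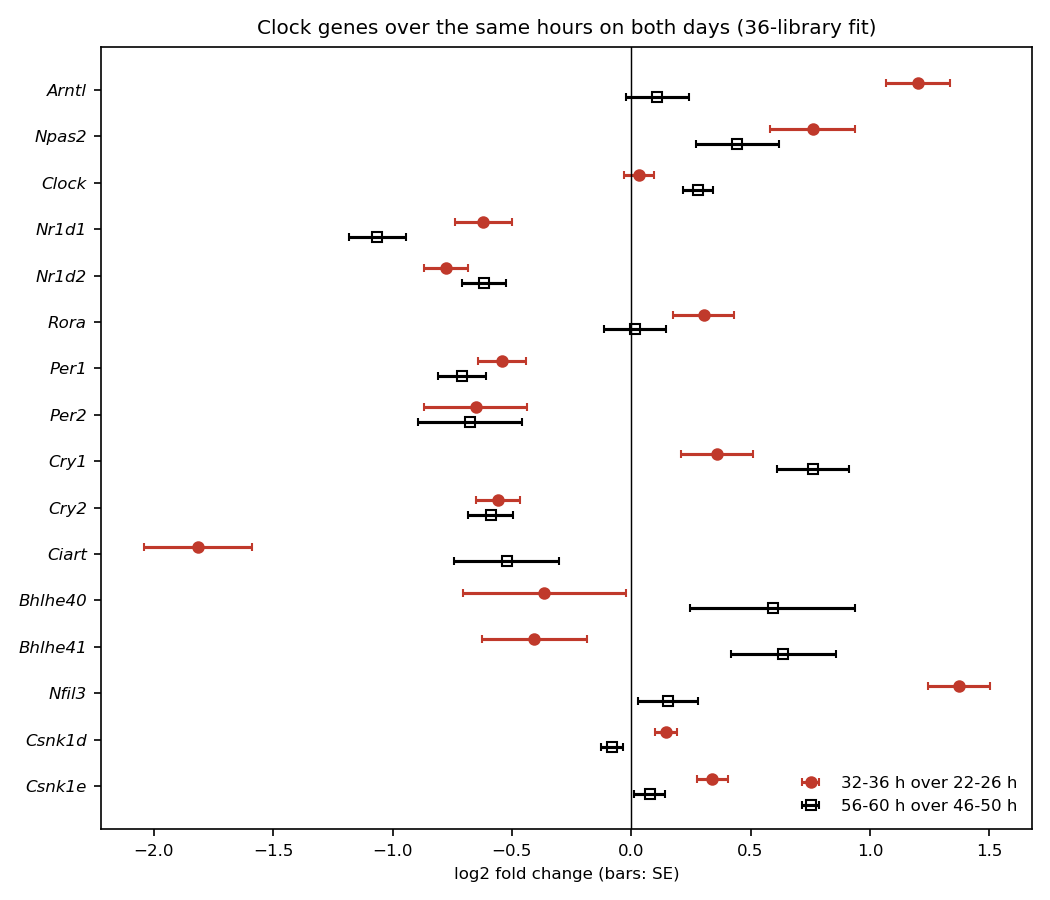
Log2 fold change (horizontal axis, bars are SEs) of 16 clock genes for 32-36 h over 22-26 h (red circles) and for 56-60 h over 46-50 h (open squares) in the fit of 36 libraries. Arntl stands at 1.20 and 0.11 and Ciart at -1.82 and -0.52, while Nr1d2, Per1, Per2 and Cry2 are below 0 on both days.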

How the data were processed

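Per the labels' protocols, RNA was purified on columns, depleted of ribosomal RNA and sequenced in paired-end mode (Illumina HiSeq); the submitters' processing notes name DRAGEN, HTSeq and GRCm38 (mm10). Versions, annotation release and strand setting do not stand in these sources. The values deposited by the authors are raw counts per gene and library for 49568 gene symbols; closing lines that name no gene (no feature 29.84% to 36.61%, not unique 19.55% to 32.97% and ambiguous 1.23% to 1.76% of the tally) were left out. Genes were filtered with filterByExpr by window, given TMM factors and modelled in edgeR 4.0.16 (quasi-likelihood, glmQLFit and glmQLFTest) under R 4.3.3. Calls are genes with a Benjamini-Hochberg adjusted p under 0.05 over the whole table. SEs are the log2 fold change over the square root of F. The days were compared in a second fit with 4 windows. Libraries of a course entered as independent samples. Log2 CPM used a prior count of 2. Time course numbers in the titles were taken to pair the windows, and course as a block was an alternative. Same-numbered deviations correlated at 0.43, 0.21 and 0.14, and those of unlike numbers at -0.375 to 0.158. A library stood apart where its root mean square distance from the median log2 profile of the libraries within 2 h was over 0.525. The steps were tested on simulated data. The windows and gene lists were chosen with earlier results of these data known. Some genes that the naming rule picks are not reported here. Named genes are otherwise all tested clock genes, the 12 largest rises and falls with at least 5 CPM and separate windows, up to 4 of smallest adjusted p per list, and up to 8 each for both days and for the difference between days; other list members named were chosen after their values were seen.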

Additional observations from a re-analysis of the deposited data

Results flagged for a closer look

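In 386 gene levels and library sums, 29 had 1 library far from the other 8 of its window; chance flags about 1 in 20. At 32-36 h, course 3 at 32 h was the highest library for Ccne1 (3.14 CPM), Hist1h1e (234 CPM), Cd36 (534 CPM), Mrc1 (2090 CPM), Msr1 (114 CPM), Dusp6 (30.5 CPM) and Hsd17b12 (62.4 CPM), all genes that fell. Course 2 at 36 h was the lowest for Nr1d1 (5.34 CPM) and Cfp (460 CPM) and the highest for Elovl6 (13.5 CPM), Pdia6 (210 CPM), Hspd1 (89.9 CPM), the summed T and NK cell markers (257 CPM) and the summed mast cell markers (4.72 CPM). Course 3 at 36 h was the highest for Csnk1e (52.5 CPM) and Hexa (2190 CPM).

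At 22-26 h, course 3 at 22 h, the library that stood apart, was the highest for Oas1a (148 CPM), Bst2 (463 CPM), Stat2 (149 CPM), Oas3 (308 CPM), Il4ra (322 CPM) and the summed dendritic cell markers (463 CPM, nearly all of it Bst2). Course 3 at 24 h was the highest for Acadl (39.1 CPM) and the lowest for Hnrnpa1 (29.9 CPM). Course 1 at 26 h was the highest for Tlr9 (7.14 CPM) and Ccl24 (1.56 CPM), and course 1 at 22 h for Mrc1 (2900 CPM). Course 2 at 22 h was the lowest for Wee1 (28.1 CPM). Course 2 at 24 h had the most counts, 62023984 (6.2e+07).

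For 21 of the 32 clock and day genes reported, against 42.5% of all genes tested, the change of 32-36 h over 22-26 h differed from that of 56-60 h over 46-50 h by edgeR's quasi-likelihood test, as a log2 difference of first day minus second. The count includes 7 genes that were chosen for the smallest p of this difference, so it is a description. The genes that fell on both days were chosen by the size of their first-day change, which favours a negative difference. Among clock genes it was 1.09 for Arntl, -0.25 for Clock, 0.444 for Nr1d1, -1.29 for Ciart, -1.04 for Bhlhe41, 0.226 for Csnk1d, 0.261 for Csnk1e and 0.774 for Fbxl21. Of these 8, Clock, Nr1d1, Bhlhe41 and Fbxl21 were not called without the libraries that stood apart (differences of -0.11, 0.30, -0.53 and 0.52, adjusted p = 0.174, 0.11, 0.0544 and 0.0732), and the other 4 were. Among genes that fell on both days it was -1.12 for Dtl, and -0.918, -0.726, -0.837, -0.781 and -0.912 for the histone genes Hist1h2bn, Hist1h1b, Hist1h2bk, Hist1h2bl and Hist1h3a. It was negative for Srsf3 (-1.26), Gmds (-1.86), Ptma (-1.04) and Hsd17b12 (-1.54) and positive for AB124611 (0.936), Eif4b (0.964) and Eif3e (0.785).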

How the results depend on the processing

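Genes called higher at 32-36 h numbered 2402 with library size alone, 120 by glmTreat against a fold of 1.5, 2336 with counts summed per course and window, and 2314 to 3114 when 1 course was left out; genes called lower numbered 410 by glmTreat. On the second day, 631 genes were higher and 618 lower with no filter on low counts, 276 and 557 without the libraries that stood apart, and 2 to 977 and 20 to 881 when 1 course was left out. The change differed between days upward in 1725 to 3192 genes and downward in 2163 to 3644 when 1 course was left out. Every other alternative run kept these counts within 1.5 times, among them DESeq2 (3753 higher, 3894 lower) and the course as a replicate block (3883 higher, 3835 lower; pairing from the course numbers), and no called result reversed. Of the 7339 calls of the first comparison 7277 were also made with the block, which changed 1 call among named genes, Bhlhe41 on the second day. Of the values for named genes under alternatives, 3202 kept their side of the threshold in the first comparison, 187 fell below it and 2 passed it; for clock and day genes these numbers were 172, 65 and 1 on the second day and 207, 30 and 1 for the difference between days; 45 list medians moved by more than the spread between courses and 639 did not. The causes were not tested. Depth limits genes near 1 CPM, where single libraries range widely.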
